A study of Oryctolagus cuniculus with 9 samples.

Results

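β-estradiol, the main ovarian estrogen, was compared at 250 nM and at 50 nM in HA-VSMC, a cultured cell line. The comparison takes the 3 libraries labelled 250 nM and the 3 labelled 50 nM, which are 6 of the 9 mRNA libraries of the series. The other 3 libraries are controls, and they enter none of the differences given here. The series asks how estrogen acts in adenomyosis, a disease in which endometrium grows into the muscle of the uterus, and its title names the retinol uptake receptor STRA6 and Wnt/β-catenin signalling.

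All 3 groups are the same line, assigned by the labels to the rabbit, and no genotype or passage number sets them apart. HA-VSMC is also the name of a human aortic smooth muscle line, while the gene identifiers in the tables are those of the rabbit. The species was not checked, and no label gives the tissue that the line came from. The cells were kept in RPMI1640 with 10% fetal bovine serum, so every group carried the growth factors and hormones of serum. Estradiol powder was taken up in DMSO with sodium hydrogen carbonate, and cells were harvested 48 h after it was added. The treatment text names 250 nM alone, so the 50 nM group rests on the sample titles and the concentration tag. The controls are tagged estrogen for treatment and WT for concentration, and whether they received the vehicle is not stated. Nothing says that replicates were separate cultures. All p-values below therefore rest on the spread of the samples as given, and that spread may be technical.

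Estradiol acts through the nuclear receptors ESR1 and ESR2, which bind DNA and change transcription over hours, and through membrane-linked routes such as GPER1 that reach the MAP kinases within minutes. MAP kinase signalling switches on immediate early genes such as EGR1 and FOS, and then its own inhibitors of the DUSP, SPRY and ERRFI1 kind, which close the loop. NF-κB signalling likewise switches on its own inhibitors NFKBIA and TNFAIP3, and the mRNAs of such feedback genes are commonly used as readouts of these pathways.

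The 6 libraries held 54718407 to 72274464 count units each, or about 13679602 to 18068616 sequenced fragments at roughly 4 units per fragment. The fibronectin gene FN1 took the largest share of units in each of the 6, at 6.63% to 7.25%. Over all tested genes the concentrations did not stand apart: the root mean square difference in log2 CPM (counts scaled to a common library total) was 0.455 to 0.502 for pairs across concentrations. It was 0.481 to 0.494 within 50 nM and 0.456 to 0.478 within 250 nM. Smooth muscle markers summed to 2627 to 2800 FPKM (a level corrected for library total and transcript length) at 50 nM and 2687 to 2742 FPKM at 250 nM, with ACTA2, CALD1 and TPM2 high. MYLK, LMOD1, ACTG2 and MYOCD averaged under 1 FPKM and DES was at 0, so 5 of the 10 markers in the table were absent or near 0. Fibroblast markers summed to 7120 to 7352 FPKM at 50 nM and 7182 to 7427 FPKM at 250 nM. All 11 endothelial and all 8 skeletal and cardiac markers in the table averaged under 1 FPKM, as did 7 of 9 epithelial and 9 of 10 leukocyte markers. The epithelial exceptions at 50 nM and 250 nM were KRT14, at 36.5 and 38.5 FPKM, and KRT7, at 2.70 and 2.57 FPKM. The leukocyte exception was LAPTM5, at 64.3 and 66.1 FPKM. Fewer cells of a type and less RNA per cell cannot be told apart in such bulk samples.

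A small set of genes separated the concentrations. Immediate early genes led by EGR1, FOS and IER3, and inhibitors of MAP kinase signalling such as DUSP6 and SPRY2, were higher at 250 nM. The NF-κB inhibitors TNFAIP3 and NFKBIA, the transcription factor IRF1 and the TGF-β inhibitor SMAD7 were lower. Of 12324 genes tested with edgeR's quasi-likelihood test, 40 passed a Benjamini-Hochberg adjusted p of 0.05, which is 0.325% of those tested. Of these, 23 were higher at 250 nM (0.187%) and 17 were lower (0.138%). The 40 had a median absolute log2 fold change of 0.53, against 0.07 for all tested genes, and only EGR1 and EPHA1 differed by 1 or more on that scale. In each of the 40 genes the 3 libraries at 250 nM lay entirely above or entirely below the 3 at 50 nM. Such separation was seen in 1418 tested genes (11.5%). An unadjusted p under 0.05 was reached by 700 genes (5.68%), 371 higher and 329 lower. DESeq2, run as an alternative, called 99 of the 12324 genes (0.803%).

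**Figure D1:**
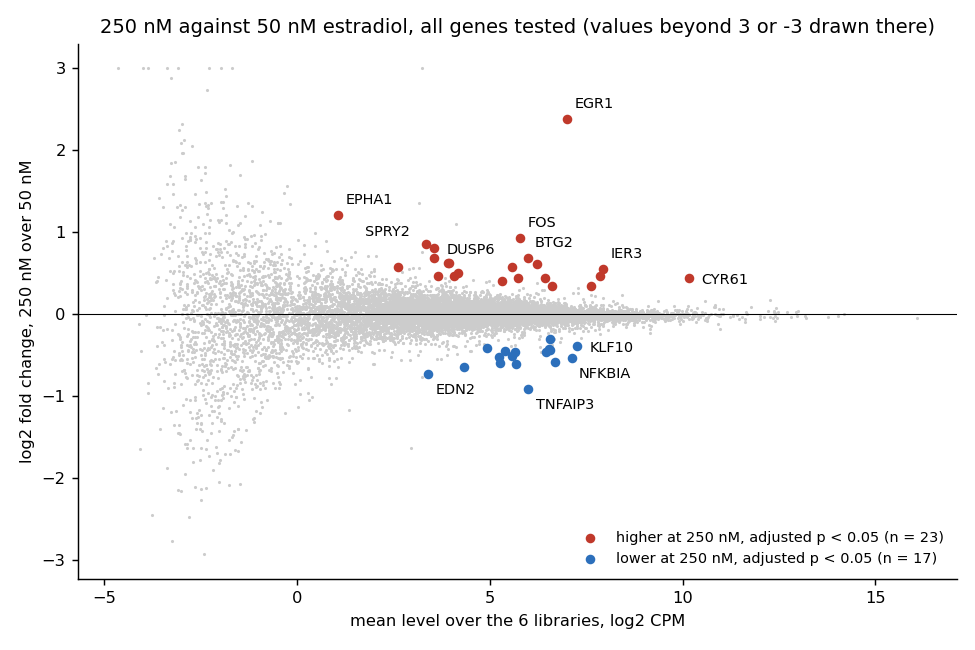
Difference between the concentrations (y axis, log2 fold change of 250 nM over 50 nM) against mean level over the 6 libraries (x axis, log2 CPM) for the 12324 tested genes. Red points are the 23 genes higher and blue points the 17 genes lower at 250 nM by edgeR's test. Most of these lie within 1 of zero, and EGR1 stands far above the other called genes. Some genes that were not called lie higher, such as CERKL at 4.24, and the largest values are drawn at a fixed limit.

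EGR1, the zinc finger transcription factor that growth factor and MAP kinase signals switch on within minutes, gave the largest difference among the 40. Its level was 47.8, 45.9 and 30.9 CPM in the libraries at 50 nM, 236, 243 and 170 CPM at 250 nM, and 275, 299 and 341 CPM in the controls. Every library at 50 nM was far below every other library, and replicate 3 was the lowest within each estradiol group. EGR1 was 5.20-fold higher at 250 nM, a log2 fold change of 2.38 ± 0.15 (SE, n = 3 per group), with an adjusted p of 1.4e-06 by edgeR's quasi-likelihood test. Per transcript length this was 24.5 against 129 FPKM.

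FOS, which pairs with JUN to form the AP-1 transcription factor, was at 42.0, 35.2 and 36.9 CPM at 50 nM and 80.6, 74.6 and 62.8 CPM at 250 nM. The controls were at 111, 96.9 and 125 CPM, above both concentrations. The difference in FOS was 0.93 ± 0.10 on the log2 scale (adjusted p = 3.66e-04, edgeR). JUN itself moved less, from 84.8, 88.2 and 85.0 CPM to 113, 109 and 104 CPM. Its log2 fold change was 0.34 ± 0.05 (adjusted p = 0.00933, edgeR), and the controls at 99.6 to 103 CPM lay just below the 250 nM libraries. MYC, the growth-promoting transcription factor, was at 74.8, 71.6 and 73.9 CPM and then at 94.1, 105 and 98.7 CPM. That is 0.44 ± 0.07 (adjusted p = 0.00567, edgeR), with controls at 88.2 to 102 CPM. In all 3 genes the estradiol groups did not overlap.

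Other fast genes moved with them. IER3, a stress-induced regulator of cell survival, rose from 202, 194 and 201 CPM to 289, 286 and 298 CPM (log2 fold change 0.55 ± 0.06, adjusted p = 3.66e-04, edgeR). Its replicates were tight, with an SD of 4.51 CPM at 50 nM and 6.08 CPM at 250 nM. The controls of IER3 were at 292 to 337 CPM, so the libraries at 50 nM were the low ones. BTG2, an antiproliferative p53 target, rose from 49.6, 44.7 and 51.4 CPM to 79.4, 82.6 and 72.1 CPM (0.68 ± 0.09, adjusted p = 0.00105, edgeR). Controls were at 78.9 to 101 CPM. The transcription factor KLF6 was higher by 0.44 ± 0.08 and the pseudokinase TRIB1 by 0.68 ± 0.13, both at an adjusted p of 0.0334 by edgeR. These smaller rises came with an SD at 250 nM of 4.21 CPM for KLF6, around a mean of 61.0 CPM, and of 1.80 CPM for TRIB1, around a mean of 14.5 CPM. Control means were 66.4 CPM for KLF6 and 11.2 CPM for TRIB1.

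The list of immediate early transcription factors did not move as a block. Of its 25 tested members, 8 were higher and 3 lower, with a median log2 fold change of 0.21 beside -0.0028 over all tested genes. Calls made up 44% of the list, beside 0.325% of all tested genes. The list was chosen with earlier results of these data known, so this share and the median depend in part on that choice. Some members, such as TRIB1 and ZFP36L2, are not transcription factors. The 3 lower ones were KLF10, a repressor induced by TGF-β, BHLHE40, a repressor linked to the circadian clock and hypoxia, and ZFP36L2, a protein that speeds the decay of AU-rich mRNAs. KLF10 fell from 184, 174 and 163 CPM to 125, 128 and 144 CPM, a log2 fold change of -0.39 ± 0.07 (adjusted p = 0.0134, edgeR). BHLHE40 fell from 112, 110 and 105 CPM to 79.9, 72.0 and 88.7 CPM (-0.44 ± 0.07, adjusted p = 0.00937, edgeR). ZFP36L2 fell by 0.31 on the log2 scale (adjusted p = 0.0306, edgeR). For all 3 the libraries at 50 nM were the high ones, and the controls, at means of 100 CPM for KLF10, 59.9 CPM for BHLHE40 and 90.4 CPM for ZFP36L2, were below them as well.

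Close relatives of the leading genes did not pass by edgeR, and the following were picked after their values were seen. EGR3 differed by 0.25 ± 0.19, FOSL1 by 0.21 ± 0.11, FOSL2 by 0.11 ± 0.07 and ATF3 by 0.06 ± 0.07 on the log2 scale. EGR2 had 1.25 ± 0.62, but it rested on a mean of 0.318 CPM at 50 nM and 0.750 CPM at 250 nM, which is 1 to 15 fragments a library. The EGR1 corepressor NAB2 had -0.39 ± 0.09 (adjusted p = 0.0935 by edgeR and 0.0111 by DESeq2), the opposite sign to EGR1. Leaving out 1 library ended several calls in this group. MYC lost its call without 250 nM replicate 2 (adjusted p = 0.0626). JUN lost it without 50 nM replicate 1, 250 nM replicate 1 or 250 nM replicate 2 (0.0731 to 0.0918), and so did BHLHE40 (0.0732 to 0.0777). KLF10 did so without 50 nM replicate 1 or 2 or 250 nM replicate 1 or 2 (0.0514 to 0.139), and TRIB1 without 50 nM replicate 2 or 3 or 250 nM replicate 1 or 2 (0.0931 to 0.236). KLF6 did so without any of the 3 libraries at 50 nM or without 250 nM replicate 1 or 2 (0.074 to 0.25). ZFP36L2 kept its call only without 50 nM replicate 3 or control replicate 1 or 2 (0.0629 to 0.218 in the other 6).

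**Figure D2:**
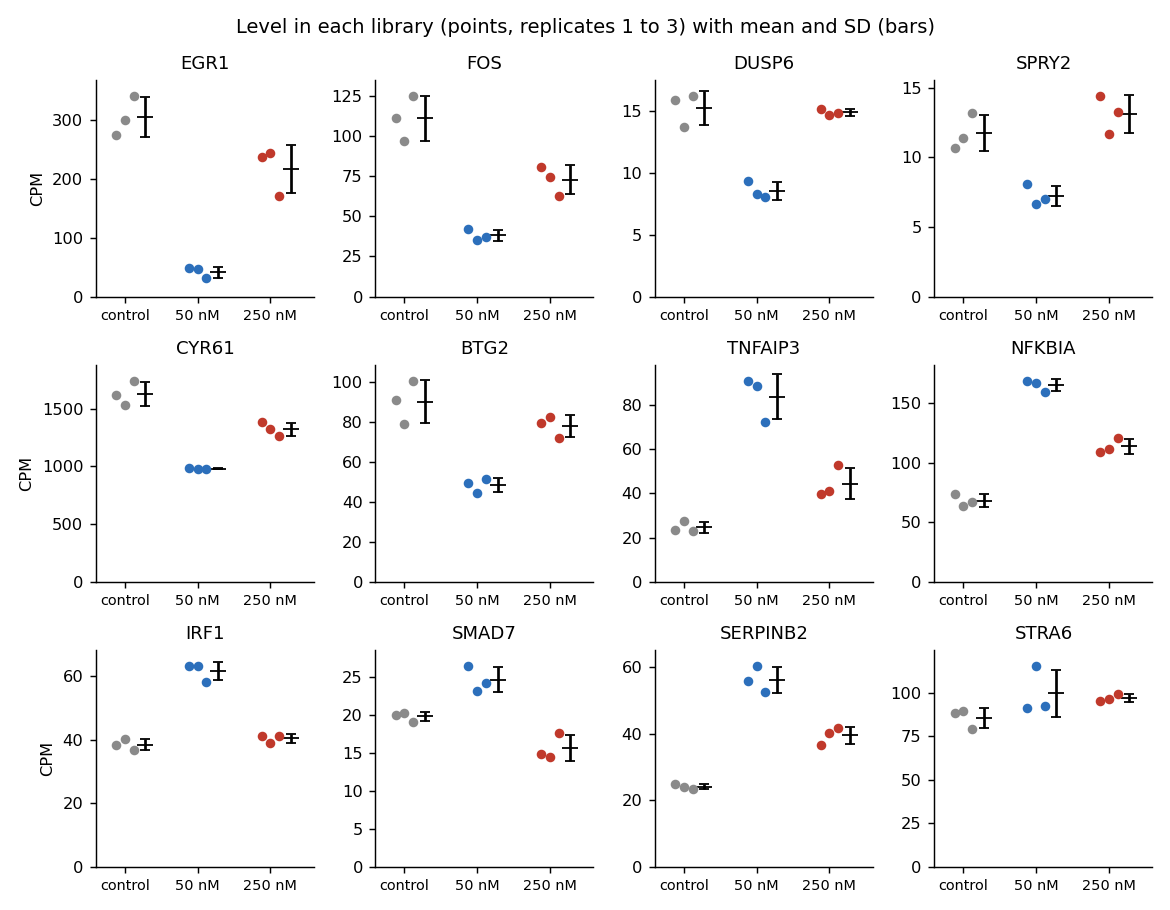
Level in CPM (y axes, linear from 0) of 12 genes in each of the 9 libraries, as points in replicate order with the group mean and SD beside them. The points at 50 nM and 250 nM are separate in all panels except that of STRA6, where they overlap.

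Several inhibitors of MAP kinase signalling rose as well. The list of MAP kinase feedback inhibitors and ERK targets had 21 tested members and was chosen with earlier results of these data known. By edgeR 5 were higher at 250 nM and 0 lower, beside 0.325% of all tested genes called. An unadjusted p under 0.05 was reached by 11, 7 higher and 4 lower, beside 5.68% of all tested genes. The 5 called genes were DUSP6, DUSP1, SPRY1, SPRY2 and ERRFI1. The median of the list was 0.03, near the -0.0028 of all tested genes.

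DUSP6, the cytoplasmic phosphatase that inactivates ERK, was at 9.36, 8.26 and 8.01 CPM at 50 nM and at 15.2, 14.6 and 14.8 CPM at 250 nM. Its libraries at 250 nM lay within the range of the controls, which were at 15.9, 13.7 and 16.2 CPM. The difference between the concentrations was 0.80 ± 0.10 on the log2 scale (adjusted p = 8.36e-04, edgeR), or 7.04 against 12.4 FPKM. DUSP1, a nuclear phosphatase of the same family that also acts on p38 and JNK, went from 181, 171 and 166 CPM to 222, 222 and 215 CPM. For DUSP1 the controls were higher than either concentration, at 322, 293 and 330 CPM. Its log2 fold change was 0.35 ± 0.06 (adjusted p = 0.0103, edgeR).

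SPRY2 and SPRY1 encode Sprouty proteins, which block receptor tyrosine kinase signals upstream of ERK. SPRY2 was at 8.06, 6.62 and 7.02 CPM at 50 nM and at 14.4, 11.7 and 13.2 CPM at 250 nM, a log2 fold change of 0.86 ± 0.12 (adjusted p = 0.00209, edgeR). SPRY1 was at 11.5, 14.0 and 10.6 CPM and then at 18.7, 18.9 and 18.0 CPM (0.62 ± 0.10, adjusted p = 0.0081, edgeR). Both genes were separated between the concentrations, and control means were 11.8 CPM for SPRY2 and 18.4 CPM for SPRY1. ERRFI1, which binds and inhibits the EGF receptor, was at 205, 197 and 180 CPM at 50 nM, and at 255, 269 and 281 CPM at 250 nM (0.47 ± 0.06, adjusted p = 0.00228, edgeR). Its controls, at 189, 196 and 214 CPM, overlapped the libraries at 50 nM and not those at 250 nM.

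Relatives chosen after their values were seen did not pass by edgeR. DUSP5, an ERK phosphatase of the nucleus, had 0.56 ± 0.16 (adjusted p = 0.257, edgeR), with libraries at 5.96 to 7.39 CPM and at 8.93 to 10.2 CPM. DUSP7 had the opposite sign at -0.31 ± 0.08 (adjusted p = 0.168 by edgeR and 0.0224 by DESeq2, its 1 lower call in the list), and DUSP4 and SPRY4 were near zero, at 0.05 ± 0.06 and 0.03 ± 0.12. HBEGF, a ligand of the EGF receptor in the same list, had -0.26 ± 0.09 (adjusted p = 0.577). The calls of DUSP6, SPRY2 and ERRFI1 held with each library left out in turn. SPRY1 lost its call without 50 nM replicate 1 or 250 nM replicate 1 or 2 (adjusted p of 0.0504 to 0.0703), and DUSP1 without 50 nM replicate 2 or 250 nM replicate 1 or 2 (0.0514 to 0.0841).

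**Figure D3:**
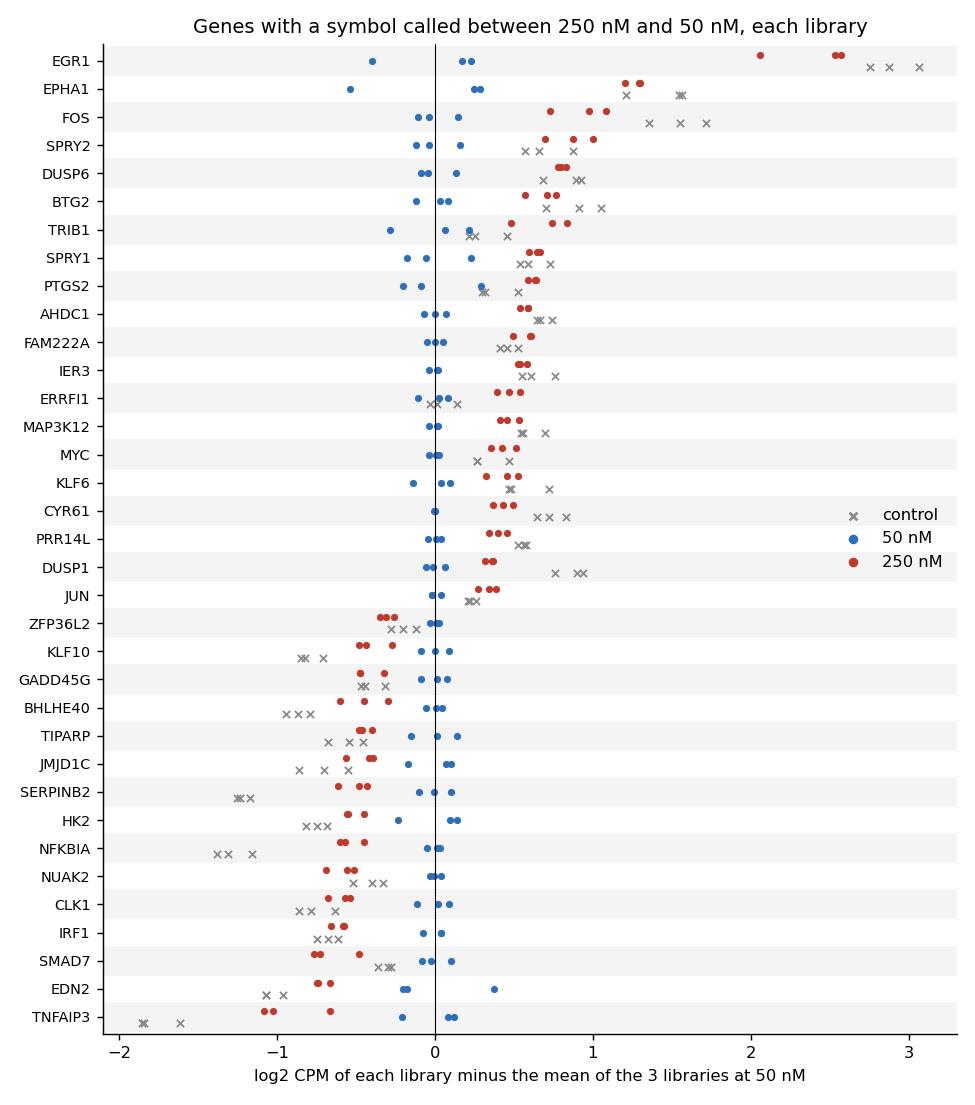
The 35 genes with a symbol that passed edgeR's test, each library shown as its log2 CPM minus the mean of the 3 libraries at 50 nM (x axis). Blue points are 50 nM, red points 250 nM and grey crosses controls; red and blue do not overlap in any row, and the controls were not part of the test.

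CYR61, a secreted matricellular protein and YAP target, rose from 981, 977 and 979 CPM to 1380, 1320 and 1266 CPM. The difference was 0.43 ± 0.05 on the log2 scale (adjusted p = 0.00101, edgeR). The libraries at 50 nM spread by an SD of 2.01 CPM, and the controls were above both groups at 1616, 1531 and 1740 CPM. NUAK2, a kinase of the AMPK family in the same list, fell from 127, 121 and 123 CPM to 84.2, 77.0 and 87.0 CPM, by 0.58 ± 0.06 on the log2 scale (adjusted p = 3.66e-04, edgeR). These were the 2 calls by edgeR among 27 tested matricellular genes and YAP/TAZ targets, whose median was 0.0006. They made up 7.41% of the list, beside 0.325% of all tested genes. DESeq2 called 2 higher and 1 lower, beside 0.803% of all tested genes. The list was chosen with earlier results of these data known. CTGF, the closest relative of CYR61, was at 4555 to 4692 CPM at 50 nM and at 5180 to 5235 CPM at 250 nM (0.17 ± 0.04, adjusted p = 0.167 by edgeR and 0.0268 by DESeq2). THBS1, another matricellular gene, had -0.18 ± 0.06 (adjusted p = 0.551), and NUAK1, the paralog of NUAK2, had 0.23 ± 0.06 (adjusted p = 0.159 by edgeR and 0.0127 by DESeq2). These 3 were picked after their values were seen.

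PTGS2, the inducible cyclooxygenase that makes prostaglandins, was at 71.6, 55.1 and 51.0 CPM at 50 nM and at 90.8, 91.4 and 88.2 CPM at 250 nM. Replicate 1 stood above the other libraries at 50 nM, and the controls at 72.2, 73.0 and 84.5 CPM fell between the groups. The log2 fold change was 0.61 ± 0.10 (adjusted p = 0.0103, edgeR). PTGS2 was the only call by edgeR among 29 tested inflammatory cytokines and effectors, whose median was -0.10. That is 3.45% of the list, beside 0.325% of all tested genes. The call was lost without 50 nM replicate 2 or 250 nM replicate 1 or 2 (adjusted p of 0.065 to 0.0742). DESeq2 called 1 member higher and 1 lower, beside 0.803% of all tested genes. Other members of that list, chosen after their values were seen, did not pass by edgeR. The neutrophil growth factor CSF3 had -0.36 ± 0.10 and was the member that DESeq2 called lower (adjusted p = 0.0389). The monocyte chemokine CCL2 had -0.55 ± 0.15 and the adhesion molecule ICAM1 had -0.13 ± 0.05. IL6 had 0.24 ± 0.11.

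Among the other genes that were higher, AHDC1, which encodes an AT-hook DNA-binding protein, had tight replicates. It was at 38.6, 40.5 and 36.7 CPM at 50 nM and at 56.1, 58.1 and 58.0 CPM at 250 nM (0.57 ± 0.06, adjusted p = 3.66e-04, edgeR). Its controls were above both groups at 60.3 to 64.4 CPM. The ephrin receptor EPHA1 had a log2 fold change of 1.21 ± 0.21 (adjusted p = 0.0164, edgeR) at a low level, with 1.45, 1.49 and 0.843 CPM against 2.82, 3.01 and 2.99 CPM. Controls of EPHA1 were at 2.82 to 3.61 CPM. MAP3K12, a kinase upstream of JNK, was higher by 0.47 ± 0.08, PRR14L by 0.40 ± 0.06 and FAM222A by 0.57 ± 0.11. EPHA1 and PRR14L lie outside the naming rule and were named after their values were seen. EPHA1 lost its call without any of the libraries at 250 nM (adjusted p of 0.065 to 0.0793), and PRR14L without 250 nM replicate 2 (0.0626). MAP3K12 lost it without 50 nM replicate 1 or 250 nM replicate 1 or 2 (0.0612 to 0.0841). FAM222A kept it only without control replicate 1 or 2 (0.055 to 0.186 in the other 7). A further 3 genes that rose and 2 that fell carry only an Ensembl identifier.

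The NF-κB inhibitors TNFAIP3 and NFKBIA were lower at 250 nM. TNFAIP3 (A20), a ubiquitin-editing enzyme that shuts off NF-κB signalling, was at 91.0, 88.6 and 72.2 CPM at 50 nM. It was at 39.5, 41.1 and 52.7 CPM at 250 nM and at 23.3, 27.3 and 23.1 CPM in the controls. The 3 groups did not overlap, and replicate 3 was the library nearest to the other concentration in each estradiol group. TNFAIP3 fell by 0.92 on the log2 scale (SE 0.11, adjusted p = 8.36e-04, edgeR). NFKBIA (IκBα), which holds NF-κB in the cytoplasm, went from 169, 167 and 159 CPM to 109, 111 and 121 CPM, with controls at 63.5 to 74.0 CPM. That is a log2 fold change of -0.54 ± 0.07 (adjusted p = 8.52e-04, edgeR).

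These were the calls among 23 tested subunits, regulators and feedback inhibitors of NF-κB, with 0 higher and 2 lower. The list had a median of -0.08, and all 6 members with an unadjusted p under 0.05 were lower at 250 nM. DESeq2 and limma-voom also gave 0 higher and 2 lower. Over all tested genes, 0.325% were called by edgeR and 0.803% by DESeq2, and 5.68% reached an unadjusted p under 0.05, 371 higher and 329 lower. The list was chosen with earlier results of these data known. Members named after their values were seen did not pass. BCL3, a nuclear IκB protein, had -0.39 ± 0.11, TNIP3, a partner of A20, had -0.78 ± 0.26 at 2.55 CPM or less on average, and REL, a subunit, had -0.47 ± 0.19. NFKBIZ, another nuclear IκB protein, had 0.00 ± 0.08, with 176 to 223 CPM at 50 nM and 195 to 222 CPM at 250 nM.

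IRF1, a transcription factor induced by interferon and NF-κB, was at 63.1, 63.1 and 58.2 CPM at 50 nM and at 41.2, 38.9 and 41.1 CPM at 250 nM. The libraries at 250 nM lay close to the controls, which were at 36.6 to 40.1 CPM. Its log2 fold change was -0.61 ± 0.06 (adjusted p = 3.66e-04, edgeR). IRF1 was the only call among 25 tested interferon and IRF genes (median -0.02), which is 4%, beside 0.325% of all tested genes. SERPINB2, which inhibits the plasminogen activator urokinase, went from 55.9, 60.3 and 52.4 CPM to 36.7, 40.3 and 41.6 CPM, by -0.51 ± 0.07 (adjusted p = 0.00264, edgeR). Its controls were lower still at 23.5 to 24.9 CPM. No other gene passed among 36 tested proteases, plasminogen genes and inhibitors, so 2.78% were called, beside the same 0.325%. Both lists were chosen with earlier results of these data known. The calls of TNFAIP3, NFKBIA, IRF1 and SERPINB2 held with each of the 9 libraries left out in turn.

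SMAD7, the inhibitory SMAD that TGF-β induces against its own receptor, was at 26.4, 23.2 and 24.1 CPM at 50 nM and at 14.8, 14.5 and 17.6 CPM at 250 nM. The controls, at 20.0, 20.3 and 19.1 CPM, lay between the concentrations and overlapped neither. The difference was -0.65 ± 0.09 on the log2 scale (adjusted p = 0.0018, edgeR). SMAD7 was the only call by edgeR among 28 tested TGF-β and BMP readouts (median -0.04), beside 0.325% of all tested genes. In this list 6 members had an unadjusted p under 0.05, all lower, beside 5.68% of all tested genes. DESeq2 called 3, all lower, beside 0.803% of all tested genes. The list was chosen with earlier results of these data known. The ID genes, BMP-induced blockers of basic helix-loop-helix factors, had negative values without passing by edgeR and were named after these were seen. ID2 had -0.50 ± 0.10 (adjusted p = 0.0614 by edgeR and 0.00271 by DESeq2) and ID3 had -0.30 ± 0.07 (0.106 and 0.00494). ID1 had -0.47 ± 0.12 (0.218 by edgeR). ID1 was at 101, 74.8 and 102 CPM at 50 nM and at 66.4, 66.8 and 67.7 CPM at 250 nM, so the libraries did not overlap but those at 50 nM spread widely.

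The remaining genes that fell have separate roles. CLK1, a kinase that phosphorylates splicing factors, went from 42.6, 46.7 and 49.0 CPM to 28.8, 31.1 and 31.8 CPM (log2 fold change -0.59 ± 0.08, adjusted p = 0.00145, edgeR), and its controls were at 25.4 to 29.7 CPM. HK2, the hexokinase that starts glycolysis, went from 48.9, 47.4 and 37.7 CPM to 30.2, 30.3 and 32.5 CPM (-0.53 ± 0.09, adjusted p = 0.011, edgeR). Each was the single call of its list, with 36 splicing genes and 32 hypoxia and glycolysis genes tested. These are 2.78% and 3.12% of the lists, beside 0.325% of all tested genes. EDN2, a vasoconstrictor peptide, went from 11.4, 11.6 and 17.0 CPM to 7.81, 7.83 and 8.24 CPM (-0.74 ± 0.14, adjusted p = 0.0273, edgeR). The high value was 50 nM replicate 3. EDN1, its better-known relative, had 0.14 ± 0.06 and was named after its values were seen. The stress sensor GADD45G had -0.42 ± 0.07 (adjusted p = 0.00694), the ADP-ribosyltransferase TIPARP -0.45 ± 0.08 (0.0184) and the histone demethylase family member JMJD1C -0.46 ± 0.09 (0.0289). In all of these the libraries at 50 nM were above all those at 250 nM.

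The calls of NUAK2, CYR61, AHDC1, SMAD7 and CLK1 held with each library left out. GADD45G lost its call without 250 nM replicate 1 or 2 (adjusted p of 0.0732 to 0.0742), and HK2 without 50 nM replicate 1 or 2 or 250 nM replicate 1 or 2 (0.0707 to 0.104). TIPARP lost it without 50 nM replicate 1 or 2 or any library at 250 nM (0.0742 to 0.157). EDN2 lost it without 50 nM replicate 3, any library at 250 nM or control replicate 3 (0.0505 to 0.154), and JMJD1C without 50 nM replicate 1 or 2, any library at 250 nM or control replicate 3 (0.0591 to 0.236).

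The receptor in the title of the series did not pass, and its libraries overlapped. STRA6 was at 91.3, 115 and 92.4 CPM at 50 nM and at 95.1, 96.3 and 99.3 CPM at 250 nM, with the high value in 50 nM replicate 2. The log2 fold change was -0.04 ± 0.08, with a 95% confidence interval of -0.21 to 0.13. The controls were at 79.1 to 89.2 CPM. Among 23 tested genes of retinoid handling, 0 passed by edgeR, DESeq2 or limma-voom (median 0.02), beside 0.325% of all tested genes by edgeR. In that list 1 had an unadjusted p under 0.05, beside 5.68% of all tested genes. The members of lowest p were the retinoic acid hydroxylase CYP26B1 at 0.28 ± 0.12 and the retinal dehydrogenase ALDH1A1 at -0.18 ± 0.15.

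Over all tested genes edgeR called 0.325% and DESeq2 0.803%. Among 45 tested Wnt genes there were 0 calls by edgeR, DESeq2 or limma-voom. An unadjusted p under 0.05 was reached by 4, 1 higher and 3 lower, beside 5.68% of all tested genes, and the median was 0.03. The libraries did not overlap in 3 members that were higher and 4 that were lower, beside 11.5% of all tested genes. The members of lowest p were the Wnt target CD44 at -0.18 ± 0.05 (adjusted p = 0.301, edgeR) and the β-catenin coactivator BCL9L at 0.22 ± 0.07 (0.362). Of 28 tested estrogen response genes, TIPARP was the 1 call by edgeR, lower at 250 nM (median 0.02). In that list 7 had an unadjusted p under 0.05, 4 higher and 3 lower, beside the same 5.68%. IRS1, an insulin receptor substrate of that list, had 0.25 ± 0.05 (adjusted p = 0.0831 by edgeR) and was the 1 member that DESeq2 called higher (0.00175), beside 1 lower.

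The estrogen receptors were scarce. In the 6 libraries ESR1 was at 0.120 to 0.323 FPKM and ESR2 at 0.158 to 0.295 FPKM, while the progesterone receptor PGR, a classical estrogen target, was at 1.31 to 1.66 FPKM. GPER1 was too low to test, with 15 units in 50 nM replicate 1, 8 units in 250 nM replicate 1 and 0 in the other 7 libraries. Differences were 0.10 ± 0.35 for ESR1, 0.11 ± 0.35 for ESR2 and 0.06 ± 0.10 for PGR on the log2 scale, and the 95% confidence intervals ran from -0.65 to 0.85 for ESR1 and from -0.64 to 0.87 for ESR2. Among 23 tested steroid receptors and genes of estrogen metabolism 0 passed by edgeR, DESeq2 or limma-voom, beside 0.325% of all tested genes by edgeR. In that list 3 had an unadjusted p under 0.05, 1 higher and 2 lower, beside 5.68% of all tested genes. The lowest p there belonged to CYP1B1, an estradiol hydroxylase, at -0.21 ± 0.07, and NCOA3, a receptor coactivator, at 0.16 ± 0.07.

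**Figure D4:**
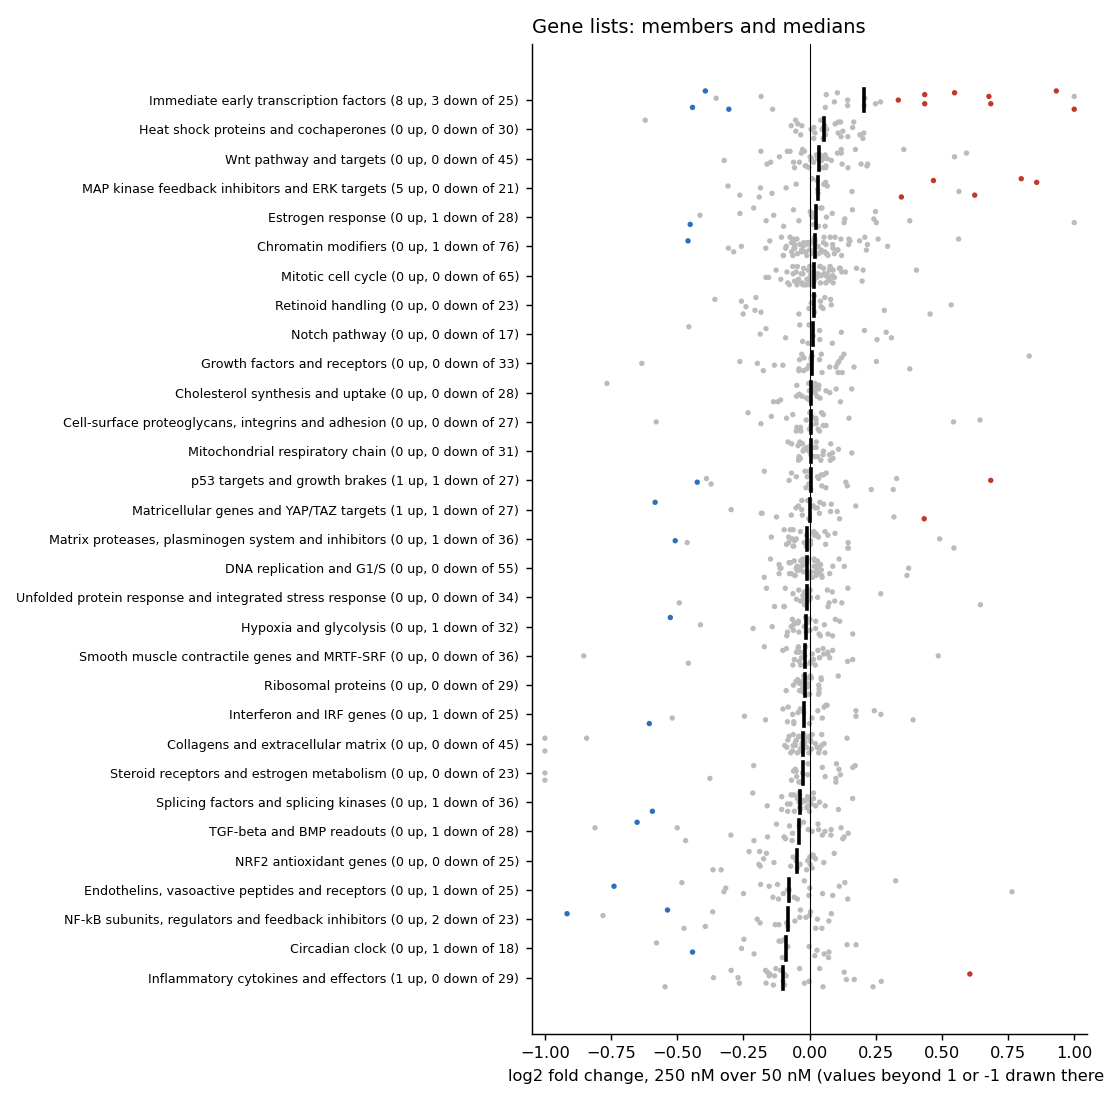
Log2 fold change of 250 nM over 50 nM (x axis) for each tested member of 31 gene lists, ordered by their medians (black bars). Red and blue points passed edgeR's test as higher or lower and grey points did not; the immediate early list has the highest median, 0.21, and the inflammatory list the lowest of those drawn, -0.10.

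Several broader programmes had medians near zero. Lists of mitotic (65 tested), DNA replication (55), matrix (45), smooth muscle contractile and MRTF-SRF (36), unfolded protein response (34), heat shock (30) and cholesterol genes (28) had 0 calls each by edgeR. With 0.325% of all tested genes called, 0 calls in lists of this size lay near that share. Genes at an unadjusted p under 0.05 numbered 4, 2, 1, 1, 3, 4 and 1 in the order of the lists, beside 5.68% of all tested genes. By limma-voom there were 0 calls in each. Over all tested genes DESeq2 called 0.803%. In these lists it called 1 mitotic, 1 heat shock and 1 unfolded protein response gene and 0 in the other 4 lists. Their medians lay from -0.03 for the matrix list to 0.06 for the heat shock list. The 29 ribosomal protein genes and the 31 genes of the respiratory chain had 0 calls by edgeR, DESeq2 and limma-voom, and 0 genes at an unadjusted p under 0.05. Other lists held more genes at that level. They were 5 of 25 NRF2 antioxidant genes, all lower, and 13 of 76 chromatin modifiers, 8 higher and 5 lower. Endothelins, vasoactive peptides and receptors had 7 of 25, 1 higher and 6 lower. Medians of these lists were -0.05, 0.02 and -0.08, with 0, 1 and 1 calls by edgeR. Among smooth muscle genes the lowest p belonged to MRTFA, a coactivator of SRF, at -0.17 ± 0.06 (adjusted p = 0.455, edgeR), and SRF itself had 0.14 ± 0.07. In the 27 tested p53 targets and growth brakes BTG2 was higher and GADD45G lower by edgeR, while DESeq2 called 3 higher and 2 lower. CDKN1A (p21), the cell cycle inhibitor of that list, was at 304 to 331 CPM at 50 nM and 358 to 381 CPM at 250 nM (0.23 ± 0.05, adjusted p = 0.0938 by edgeR and 0.00171 by DESeq2), and PLK2 had 0.32 ± 0.07 (0.0712 and 0.00177); both were named after their values were seen.

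The 6 libraries did not carry the differences equally. Among the 40 genes the library at 250 nM nearest to the 50 nM mean was replicate 3 in 27, replicate 2 in 8 and replicate 1 in 5. At 50 nM the library nearest to the 250 nM mean was replicate 1 in 17 genes, replicate 3 in 14 and replicate 2 in 9. 250 nM replicate 3 was also the most deeply sequenced of the 6, and the part of depth in this was not tested. Leaving out 250 nM replicate 3 gave 32 calls, while leaving out 250 nM replicate 1 or 2 gave 23 and 21. With each of the 9 libraries left out in turn, 18 of the 40 genes kept their call every time, 10 higher and 8 lower. Of these, 9 also kept it in all of the other settings in which they were tested, namely EGR1, IER3, AHDC1, DUSP6, IRF1, NFKBIA, NUAK2, CLK1 and 1 gene without a symbol. No called gene changed direction in any setting in which it was tested.

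**Figure D5:**
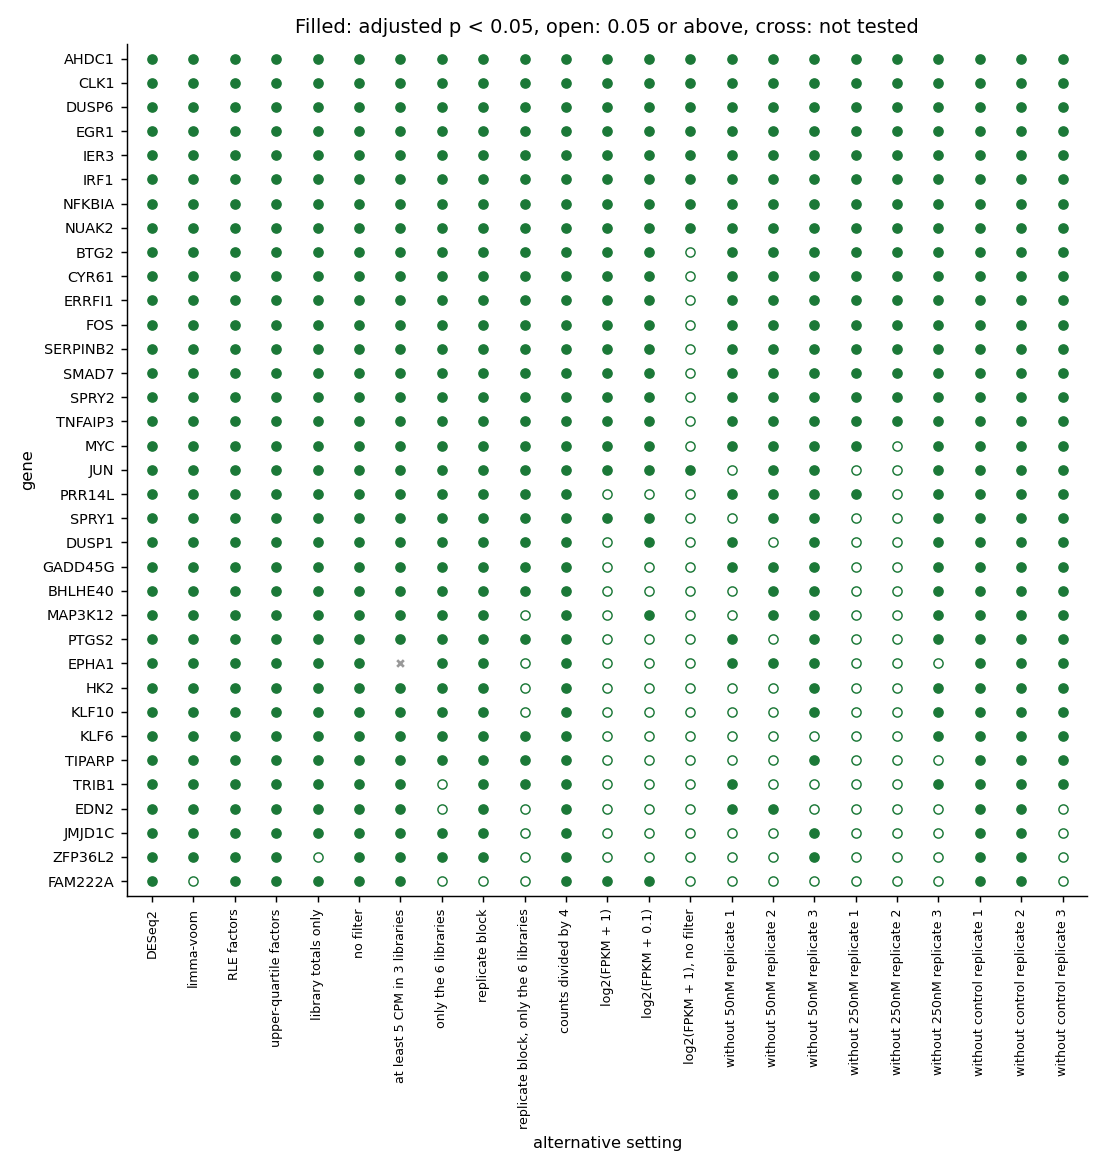
Calls of the 35 genes with a symbol (rows) under the 23 alternative settings in which genes were retested (columns). Filled circles are an adjusted p under 0.05, open circles 0.05 or above and the cross is EPHA1, which was not tested under the stricter filter; the top 8 rows are filled throughout.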

How the data were processed

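For 9 libraries the authors deposited 1 table of estimated counts and 1 of FPKM per gene. The submitters' processing notes list TopHat2 2.1.1 beside Trim Galore, Cuffdiff and Cufflinks. Not given in the sources used here: which tool counted, the genome build, the annotation and the use of strand. For this reason overlapping genes and close copies may share counts. Per the labels' protocols, RNA was isolated with TRIzol and a small RNA kit was used for the mRNA libraries. The deposited counts are whole numbers whose low values pile up at 4, 8 and 12, so about 4 units were taken as 1 fragment. Libraries of a group differed by more than sampling noise (chi-square over its degrees of freedom of 3.08 or more).

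Column names gave each column's sample, and 0 columns belonged to other samples. The table lists 19291 genes, 13318 by symbol (12500 of them in a RefSeq table of mOryCun1.1, used for names only) and 5973 by identifier. edgeR 4.0.16 (R 4.3.3) with filterByExpr (minimum count 10) kept 12324 genes, 9800 with a symbol, holding 99.99% of units. The quasi-likelihood test used TMM factors and the spread of all 9 libraries (biological coefficient of variation 8.92%), with Benjamini-Hochberg adjustment over all tested genes and a threshold of 0.05. CPM were computed here with TMM factors. Tests were of either direction. Alternatives were DESeq2 1.42.0, limma 3.58.1 (voom, and on log2(FPKM + 1) and log2(FPKM + 0.1)), other scalings and filters, a replicate block and leaving out each library. The method was tested on simulated data.

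The members and the 37 gene lists, 6 of them cell type markers, were chosen with earlier results of these data known. Named genes are STRA6, ESR1, ESR2, GPER1 and PGR, the 15 largest rises and 15 largest falls among called genes with a symbol, a mean of at least 5 CPM and no overlap, up to 6 called genes per list, and the 2 of lowest p from 6 lists.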

Additional observations from a re-analysis of the deposited data

How the results depend on the processing

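For 250 nM against 50 nM estradiol, 40 genes were called by edgeR (23 higher, 17 lower). limma-voom gave 40, RLE factors 39, upper-quartile factors 39, library totals 41, a filter of 5 CPM in 3 libraries 41, counts divided by 4 gave 45, and fitting only the 6 libraries gave 40, of which 36 were among the 40. Counts that moved by over 1.5 times were 99 with DESeq2 (48 higher, 51 lower, all 40 among them), 23 on log2(FPKM + 1), 26 on log2(FPKM + 0.1), 11 on log2(FPKM + 1) with no filter, and 2 with a minimum log2 fold change of 1; the last is smaller by construction, and for the others the cause was not tested. Without a filter on low counts there were 58 (30 higher, 28 lower). The split of 23 to 17 became 18 to 8 on log2(FPKM + 0.1) and 15 to 8 on log2(FPKM + 1). Leaving out 1 library each gave 21 to 50 calls. The 23 calls without 250 nM replicate 1 and the 21 without 250 nM replicate 2 also moved by over 1.5 times.

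Deviations of same-numbered libraries of the concentrations had correlations of 0.0252, -0.00292 and 0.0151, and the numbers were not taken to pair samples. Replicate 2 nevertheless had the highest FN1 share in each group, at 6.95% (control), 7.25% (50 nM) and 7.03% (250 nM). It also had the lowest share of ribosomal protein genes in each, at 1.27%, 1.31% and 1.33%. What this shared pattern stems from was not tested. With the replicate number as a block there were 42 calls (22 higher, 20 lower, 38 of the 40), and 30 with the block on the 6 libraries (18 higher, 12 lower).

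Among genes that were not called, values near zero changed sign when 1 library was left out: PGR (range -0.011 to 0.14, negative without 50 nM replicate 1 and, at -0.0097, without 250 nM replicate 2), STRA6 (-0.10 to 0.077, positive without 50 nM replicate 2) and ESR2 (-0.14 to 0.29, negative without 250 nM replicate 1). The others were ESR1 (-0.25 to 0.37, negative without 250 nM replicate 3 and, at -0.18, without 50 nM replicate 1), SPRY4 (-0.072 to 0.13, negative without 50 nM replicate 3) and NFKBIZ (-0.10 to 0.062, negative without 50 nM replicate 3 and, at -0.05, without 250 nM replicate 3). Limits: each group had 3 libraries, and the fit took its spread from all 9. For genes of few fragments, such as EGR2, ESR1 and ESR2, a difference of 0.53, the median size among the called genes, lay within the error.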

Other observations

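Genes that DESeq2 called and edgeR did not, 52 of them with a symbol, include groups not described above, named here after their values were seen. Several genes of fuel and stress sensing had negative DESeq2 log2 fold changes at 250 nM. The glucose-responsive arrestin TXNIP had -0.39 ± 0.09 (adjusted p = 0.00707 by DESeq2 and 0.111 by edgeR) and its relative ARRDC3 had -0.41 ± 0.11 (0.0401 and 0.182). DDIT4, an inhibitor of mTOR signalling, had -0.49 ± 0.12 (0.0118 and 0.114), and HMOX1, the inducible heme oxygenase, had -0.34 ± 0.09 (0.0219 and 0.146). The bradykinin receptor BDKRB2 had -0.32 ± 0.08 (0.00614 and 0.0928), and ZC3H12A, an RNase that degrades cytokine mRNAs, had -0.31 ± 0.08 (0.00707 and 0.111). Among genes with positive values, the hedgehog receptor PTCH1 had 0.33 ± 0.09 (0.0446 and 0.182) and the nuclear exporter XPO1 0.19 ± 0.05 (0.038 and 0.26).

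In 2 genes, named after their values were seen, single libraries stood far from others of their group. CERKL was at 51.6 CPM in 250 nM replicate 3 and at 0.588 to 1.41 CPM in the other 5 estradiol libraries and 0.748 to 1.01 CPM in the controls. Its log2 fold change of 4.24 ± 1.13 did not pass (adjusted p = 0.225, edgeR). TMEM241 was at 24.3, 3.83 and 5.52 CPM at 50 nM, at 25.7, 21.6 and 24.3 CPM at 250 nM and at 26.6, 11.1 and 21.8 CPM in the controls, and did not pass either (1.10 ± 0.47, adjusted p = 0.784, edgeR). Its low values were 50 nM replicates 2 and 3, with control replicate 2 between.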
